A study of Homo sapiens with 10 samples.

Results

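The libraries described here are those of human embryonic stem cells kept for 18 h in the GSK3 inhibitor CHIR99021, set against untreated cells of the same line. They were chosen by their treatment labels and comprise 4 of the 10 libraries of a bulk RNA sequencing series, namely 2 CHIR99021 18 h libraries and 2 mTeSR1 libraries. All cells were ESI017, an embryonic stem cell line labelled as wild type and grown in the defined medium mTeSR1, and were plated 24 h before treatment. CHIR99021 was given at 8 µM in mTeSR1 for 18 h, and the untreated cells stayed in mTeSR1 alone. Other groups of the series, CHIR99021 at 8 µM for 6 h and WNT3A protein at 300 ng/ml for 6 h and 18 h, entered the same statistical fit and served for comparison. Both CHIR99021 18 h libraries belong to biological repeat 2, while mTeSR1 has 1 library from each repeat. Replicate 1 and 2 of mTeSR1 carry the number of their repeat, whereas library 1 and 2 of CHIR99021 18 h are names only. The labels do not say whether the 2 CHIR99021 18 h libraries came from separate wells, so p-values measure the spread between libraries, which may be technical. No time is labelled for mTeSR1 and no solvent control is listed, so CHIR99021 cannot be told apart from its solvent or from time in culture.

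In the canonical WNT pathway, a complex of AXIN, APC, casein kinase 1 and GSK3 phosphorylates β-catenin and so marks it for degradation. WNT ligands bound to Frizzled and LRP receptors switch this complex off, and CHIR99021 does so inside the cell by blocking GSK3. Stabilized β-catenin then joins TCF and LEF proteins on DNA and raises transcription of target genes, many of which encode inhibitors of the pathway itself. In the embryo, WNT signalling at the posterior end of the epiblast, the tissue that human pluripotent stem cells resemble, accompanies formation of the primitive streak, from which mesoderm and endoderm arise.

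Levels are given as CPM, estimated counts per 1000000 of the library total after TMM scaling, which adjusts each total for differences in composition. Library totals were 1.66e+07 and 1.73e+07 estimated counts in CHIR99021 18 h, and 1.89e+07 and 1.81e+07 in mTeSR1 before scaling, and 3 counts equal 0.157 to 0.179 CPM of the scaled totals. The pluripotency factor POU5F1 stood at 1596 and 1496 CPM in CHIR99021 18 h, and at 1656 and 951 CPM in mTeSR1. SOX2 stood at 379.7 and 331 CPM after CHIR99021 and at 342 and 265 CPM in mTeSR1. Lists of markers of 7 other cell types, from fibroblast to liver, held 3 called members, COL1A1, MAP2 and NGFR, each in a list of its own and each lower after CHIR99021. Of the 6 to 11 members of each list, 1 or 2 were at 0 in all 4 libraries. Those at 0 included DCN, CGA, NEUROG1, TFAP2B, MYH7, HBE1 and TTR, and other members of each list were detected. Summed marker levels were 201 and 215 CPM after CHIR99021 against 239 and 312 CPM in mTeSR1 for fibroblasts, and 217 and 246 CPM against 369 and 287 CPM for neural cells. Markers of neural crest summed to 55.3 and 22.5 CPM after CHIR99021 and 58.6 and 95.1 CPM in mTeSR1, and the other 4 lists were at 27.8 CPM or less in every library. In bulk RNA, fewer cells of a type and less RNA per cell cannot be told apart.

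Some libraries stood apart. In mTeSR1 replicate 2, genes with longer transcripts stood higher relative to their mean over all libraries (Spearman coefficient with the longest transcript 0.365 over 15142 genes), as in WNT3A 6 h replicate 2 (0.464), while the other 8 libraries lay between -0.294 and -0.003. The median longest transcript of the genes called lower was 4582 bases and of those called higher 4112.5 bases, against 3615 bases over all tested genes. The part of this length dependence in the calls was not tested. Mitochondrially encoded transcripts made up 5.12% and 5.14% of counts in CHIR99021 18 h, against 3.94% and 6.73% in mTeSR1. Of 13 mitochondrially encoded genes 0 were called (median log2 change -0.37), and 8 were called lower among repeat 2 libraries alone (median -0.51), where 3.71% of all tested genes were. The part of these transcripts in the other results was not tested. The CHIR99021 18 h libraries also differed from each other in both directions, among others in genes that are low in untreated cells. Both libraries are therefore given throughout.

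After 18 h of CHIR99021, 176 genes were higher and 248 were lower than in mTeSR1, out of 15251 tested, by edgeR's quasi-likelihood test at a Benjamini-Hochberg adjusted p (FDR) under 0.05. These are 1.15% and 1.63% of the genes tested, and 2.78% in either direction. Genes that rose furthest included the WNT target SP5, the WNT ligands WNT5B and WNT10B, the streak regulator EOMES and the forkhead factor FOXB1. Genes that fell furthest included the WNT receptor inhibitor SHISA2, the pluripotency-associated factor FOXD3, the anterior factor HESX1, SYT4, a synaptotagmin, and CPLX2, a complexin. The plot of all tested genes shows calls in both directions across the range of expression levels. Both CHIR99021 libraries lay above both mTeSR1 libraries for 174 of the 176 higher genes, against 24.2% of all tested genes, and below them for 239 of the 248 lower genes, against 22.7%. The call rule used the same values, so this separation is a description.

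**Figure D1:**
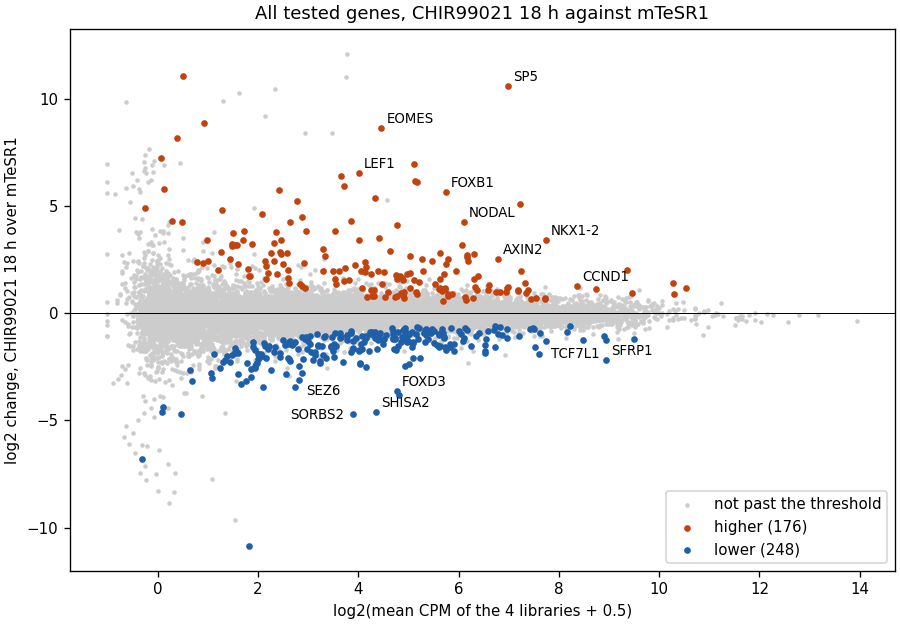
Log2 change after 18 h of CHIR99021 over mTeSR1 (y axis) against the log2 mean CPM of the 4 libraries plus 0.5 (x axis) for 15251 genes, each a point. The 176 genes called higher are red and extend beyond SP5 at 10.59, and the 248 called lower are blue. For genes at 0 in all libraries of a group the plotted change depends on the fit's prior count.

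The number of calls depended on single libraries, while directions did not: all 424 genes kept their direction under every setting in which they were tested. Calling with library 2 alone gave 244 higher and 278 lower genes (1.55% and 1.77% of those tested), and with library 1 alone 63 and 23 (0.401% and 0.146%). Without mTeSR1 replicate 1 the counts were 38 and 39 (0.242% and 0.249%), without mTeSR1 replicate 2 they were 8 and 2 (0.051% and 0.0128%), and without WNT3A 6 h replicate 2 they were 124 and 150. Among the libraries of repeat 2 alone, where the spread comes from the CHIR99021 18 h libraries only, 671 genes were higher and 571 lower (4.36% and 3.71%), and 263 of the 424 calls were among them. The one untreated library from the repeat of the CHIR99021 18 h libraries is mTeSR1 replicate 2. A fit with a single library left in a group takes its spread from the other groups alone. Among the 10 genes with the lowest FDR, all 10 stayed called without either CHIR99021 library or without mTeSR1 replicate 1, and 8 without mTeSR1 replicate 2. FOXB1, ALK, SLC39A8, RGMB and HERC3 kept their call under all 13 alternatives.

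Counts of calls in each gene list below stand beside 1.15% higher and 1.63% lower among all tested genes. Of 17 tested feedback inhibitors and direct targets of the WNT pathway, 9 rose and 0 fell. The median log2 change was 3.17, against 0.02 over all tested genes. It was 2.79 with the gene whose mTeSR1 libraries were at 0 set to its bound, 1.89 with library 1 alone and 3.84 with library 2 alone. Among repeat 2 libraries alone, with 1 untreated library, the median was 2.87. The log2 change of AXIN2 there was 2.53 with an SE of 0.77, against an SE of 0.33 in the main fit. Most of the list, SP5 and AXIN2 among it, was not called there. SP5 (ENSG00000204335, chr2:170715351-170718078 in GRCh38), a zinc finger factor and direct β-catenin target, had 135 and 370.2 CPM in the CHIR99021 libraries, against 0.366 and 0 CPM in mTeSR1. The change was 10.59 on the log2 scale (SE 0.79, edgeR FDR 0.000972), and it was among the genes with the lowest FDR. As examples with a match, the sequences around the starts of SP5 and of its relative SP8 are printed here from RefSeq (GRCh38.p14). Each runs from 250 bases before to 50 bases after the start, 5′ to 3′ on the gene's strand. Capitals mark CTTTGAT or CTTTGAA on either strand (TTCAAAG is CTTTGAA on the other strand), sequences of the kind that TCF and LEF proteins bind.
SP5, chr2:170715087-170715386, plus strand: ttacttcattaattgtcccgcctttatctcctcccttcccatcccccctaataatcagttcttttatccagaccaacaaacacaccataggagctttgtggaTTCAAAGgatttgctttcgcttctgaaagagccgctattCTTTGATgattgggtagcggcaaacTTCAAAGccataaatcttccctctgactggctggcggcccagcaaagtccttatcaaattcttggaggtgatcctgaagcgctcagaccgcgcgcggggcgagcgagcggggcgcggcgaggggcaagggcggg
SP8, chr7:20786837-20787136, minus strand: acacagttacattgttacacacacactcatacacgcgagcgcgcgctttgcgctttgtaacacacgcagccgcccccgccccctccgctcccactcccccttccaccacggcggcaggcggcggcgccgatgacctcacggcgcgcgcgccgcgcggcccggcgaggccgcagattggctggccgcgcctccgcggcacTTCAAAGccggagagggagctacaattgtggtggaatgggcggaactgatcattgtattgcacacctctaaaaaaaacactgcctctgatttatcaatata
The SP5 window holds 3 matches and the SP8 window 1. Of the 9 called genes of the WNT target list, 6 had a promoter, and SP5 and SP8 were the only 2 with a match. The windows of APCDD1, LEF1, RNF43 and TCF7 held no match. A single listed start was used for each gene, so windows at other starts of these genes were not scanned. A promoter was found for 138 of the 176 higher genes, of which 9 (6.52%) held a match: SP5, SP8, FGF18, HOXB1, DACT1, IRX1, BAG2, GABRB2 and SLC3A2. Of 187 promoters of lower genes 6 did (3.21%), and of 11586 promoters of tested genes 456 did (3.94%). These matches describe the letters of the window and do not show binding.

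SP8, a developmental zinc finger factor of the same family, had 31 and 69.1 CPM after CHIR99021 and 4.03 and 3.12 CPM in mTeSR1 (log2 4.10, edgeR FDR 0.0039). AXIN2 (ENSG00000168646, chr17:65528563-65561647), an inducible scaffold of the destruction complex, had 120.2 and 249.4 CPM, against 39.3 and 31.8 CPM in mTeSR1. Its log2 change was 2.51 (SE 0.33, edgeR FDR 0.00844), and the lower CHIR99021 library still stood 3.38-fold above the mTeSR1 mean. RNF43, the ubiquitin ligase that removes Frizzled receptors, had 10.8 and 31 CPM after CHIR99021 and 0.68 and 2.16 CPM in mTeSR1. NKD1, which acts on Dishevelled, and APCDD1, a membrane inhibitor of WNT, had log2 changes of 3.17 and 3.51. The pathway's own DNA-binding partners rose as well: TCF7 had 36.6 and 59.4 CPM after CHIR99021 and 12.8 and 14.3 CPM in mTeSR1, and LEF1 had 5.31 and 56.3 CPM against 1.05 and 0.113 CPM. The cell cycle gene CCND1 reached 423 and 518 CPM, against 158 and 210.4 CPM. NKD2 (8 and 9.25 CPM after CHIR99021, 5.28 and 5.22 CPM in mTeSR1) and ZNRF3 (47.6 and 51.6 CPM, against 33.5 and 40.4 CPM) did not pass. All 9 called genes stayed called with library 2 alone and 5 with library 1 alone. Without WNT3A 6 h replicate 2, 6 stayed called. Without mTeSR1 replicate 1 only SP5 and SP8 did, and without mTeSR1 replicate 2 only SP5 (FDR 0.04).

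**Figure D2:**
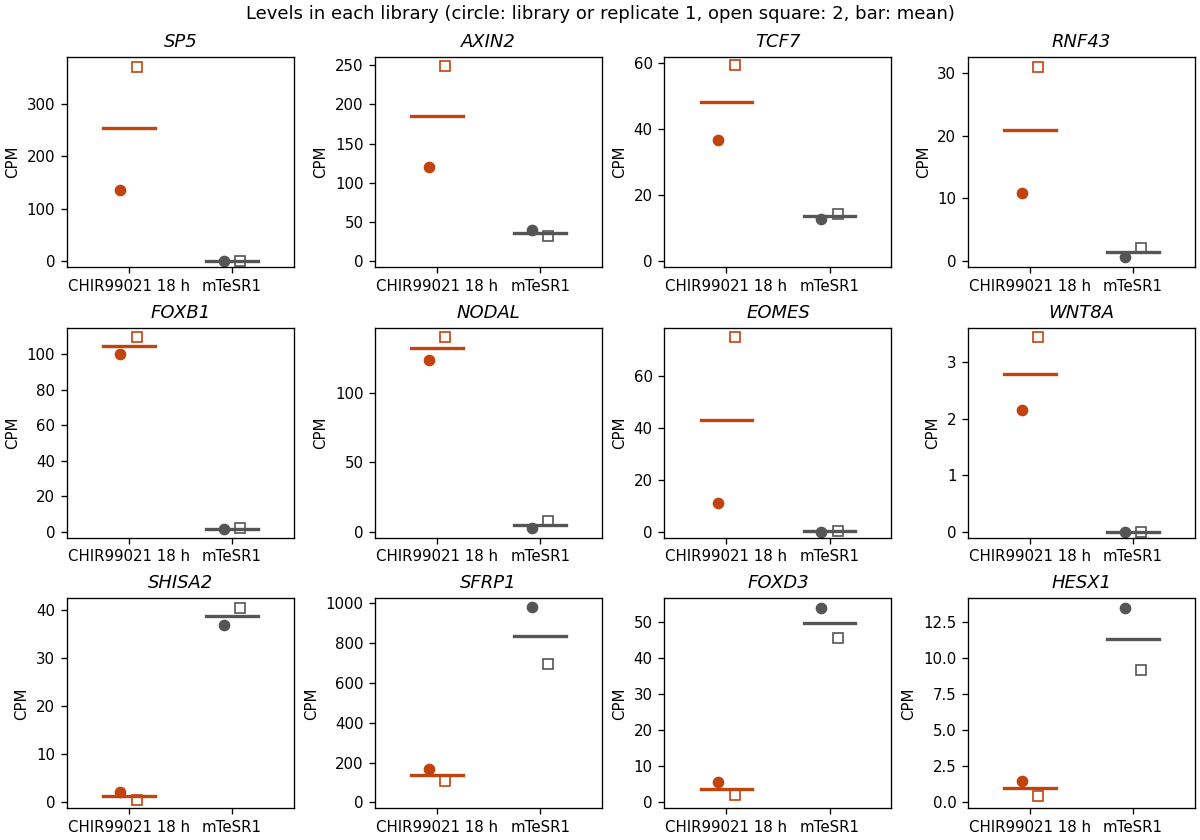
CPM (y axis, from 0) of 12 genes in each library, with CHIR99021 18 h on the left and mTeSR1 on the right of each panel. Circles are library or replicate 1, open squares library or replicate 2, and bars the mean of 2. The CHIR99021 libraries lie close together for FOXB1 and NODAL and apart for SP5 and EOMES. In SHISA2, SFRP1, FOXD3 and HESX1 both lie below both mTeSR1 libraries.

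Ligands of the pathway were among the higher genes. WNT3, WNT5B, WNT8A and WNT10B passed, 4 of 10 tested ligands, and 0 were lower, against 1.15% and 1.63% of all tested genes. WNT3 (chr17:46762506-46833154), the ligand needed for the primitive streak in the mouse, had 6.21 and 7.39 CPM after CHIR99021, against 0.785 and 1.19 CPM in mTeSR1 (log2 2.43, SE 0.27, edgeR FDR 0.0045). WNT8A had 2.15 and 3.44 CPM and was at 0 in both mTeSR1 libraries, which makes it at least 17.1-fold higher for a floor of 3 counts per library. WNT5B had 19.2 and 116 CPM, against 1.73 and 0.908 CPM. WNT10B had 1.91 and 16.8 CPM, against 0.157 and 0.397 CPM. For these last ligands the CHIR99021 libraries differed several times over, but both lay above mTeSR1. WLS, the carrier that brings WNT proteins to the cell surface, had 9.67 and 66.8 CPM after CHIR99021 and 1.88 and 0.794 CPM in mTeSR1 (log2 5.37). All 4 ligands stayed called with library 2 alone, 2 with library 1 alone or without WNT3A 6 h replicate 2, 1 without mTeSR1 replicate 1 and 0 without mTeSR1 replicate 2.

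Receptors and their extracellular regulators moved in both directions. Of 21 tested members 2 were higher and 3 lower, against 1.15% and 1.63% of all tested genes. The Frizzled receptors FZD10 (3.58 and 10.7 CPM after CHIR99021, against 0.314 and 0.284 CPM in mTeSR1) and FZD1 (4.18 and 12 CPM, against 2.56 and 1.19 CPM) rose, and FZD8 (4.65 and 2.65 CPM, against 24 and 10.6 CPM) fell. SHISA2 (ENSG00000180730, chr13:26044597-26051031) belongs to a family that in the frog holds Frizzled and FGF receptors back in the endoplasmic reticulum. It fell to 2.27 and 0.564 CPM after CHIR99021, against 36.9 and 40.4 CPM in mTeSR1 (log2 -4.62, SE 0.53, edgeR FDR 0.0056). The secreted WNT binder SFRP1 fell to 169.7 and 109.9 CPM, against 981 and 693 CPM (log2 -2.21, edgeR FDR 0.00844). Of the destruction complex and nuclear effectors, 0 of 19 rose and 3 fell. These were TCF7L1, the TCF that chiefly represses in stem cells (173 and 92.5 CPM, against 280.1 and 311 CPM), the corepressor TLE2 (4.65 and 3.05 CPM, against 11.9 and 13.4 CPM) and BCL9L, a β-catenin cofactor (155 and 123 CPM, against 187 and 245 CPM). CTNNB1, which encodes β-catenin itself, had 369 and 362 CPM after CHIR99021 and 484 and 582 CPM in mTeSR1 and did not pass (FDR 0.205). The 5 receptor-list calls stayed with library 2 alone, 3 with library 1 alone, 4 without WNT3A 6 h replicate 2, 2 without mTeSR1 replicate 1 and 0 without mTeSR1 replicate 2. The 3 calls among effectors stayed with library 2 alone, 1 without WNT3A 6 h replicate 2, and 0 without any of the other 3 libraries.

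Of 12 tested genes of the primitive streak, 4 rose (EOMES, NODAL, FGF8 and FOXB1) and 0 fell. Of all tested genes 1.15% rose and 1.63% fell. The median log2 change of the streak list was 1.96. FOXB1 (ENSG00000171956, chr15:60004222-60061730) had 100.1 and 109 CPM after CHIR99021, against 1.67 and 2.04 CPM in mTeSR1 (log2 5.65, SE 0.20, edgeR FDR 1.43e-05), the lowest FDR of all genes. NODAL (ENSG00000156574, chr10:70432315-70447951), the TGF-β family ligand that patterns the streak, had 124 and 140.0 CPM, against 2.46 and 7.94 CPM (log2 4.24, SE 0.30, edgeR FDR 0.000939). Neither gene separated the CHIR99021 libraries. EOMES, a T-box factor of streak and endoderm, had 11.2 and 74.8 CPM, against 0 and 0.284 CPM (log2 8.65, edgeR FDR 0.0204). TBXT, which encodes brachyury, had 3.52 and 49.2 CPM and was at 0 in both mTeSR1 libraries. Its mean was at least 161-fold higher for a floor of 3 counts per library, yet it did not pass (edgeR FDR 0.11). MIXL1, a homeobox factor of the streak, had 7.4 and 84.3 CPM, against 0.471 and 1.3 CPM (edgeR FDR 0.107). Both genes were far higher in library 2 than in library 1, and the spread counts as error in the test. A fit with either library alone leaves this spread out, so it cannot decide for these genes. The log2 change of MIXL1 was 6.16 with library 2 alone and 2.65 with library 1 alone, against 5.28 with both. GSC, a marker of the anterior streak, was at 0 and 0.339 CPM after CHIR99021 and at 0 in mTeSR1, too low to be tested. NODAL and FOXB1 stayed called whichever library was left out. FGF8, a streak ligand given below with its family, kept its call only without WNT3A 6 h replicate 2. EOMES lost its call without mTeSR1 replicate 1 (FDR 0.106), mTeSR1 replicate 2 (0.207) or WNT3A 6 h replicate 2 (0.114).

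Among markers of later germ layers, 1 of 7 tested mesoderm genes and 1 of 5 tested endoderm genes passed, against 2.78% of all tested genes. In the mesoderm list this was GATA4 (1.01 and 2.48 CPM after CHIR99021, against 0 and 0.113 CPM in mTeSR1, a ratio of 32.5 with an exact 95% counting interval of 8.62 to 274). In the endoderm list it was FOXA2, a forkhead factor of endoderm and node (3.28 and 7.11 CPM, against 0.209 and 0.511 CPM). Both were called from library 2 alone and not from library 1 alone, neither was called without either mTeSR1 library, and GATA4 was not called without WNT3A 6 h replicate 2.

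Of 9 tested genes of caudal and axial patterning 3 rose and 0 fell, against 1.15% and 1.63% of all tested genes. NKX1-2, a factor of the caudal epiblast, had 256 and 517 CPM after CHIR99021, against 43.9 and 40.6 CPM in mTeSR1 (log2 3.41, edgeR FDR 0.0035). GBX2, which marks tissue behind the midbrain, had 21.8 and 117 CPM, against 1.1 and 1.13 CPM. HOXB1 had 0.537 and 1.64 CPM and was at 0 in mTeSR1, at least 6.64-fold higher. Of 12 tested anterior and neural plate genes 0 rose and 2 fell. OTX2, a homeobox factor of the head, fell to 16.6 and 7.56 CPM after CHIR99021, against 67.8 and 42.2 CPM (log2 -2.09, edgeR FDR 0.031). HESX1, a repressor needed for forebrain and pituitary, fell to 1.49 and 0.451 CPM, against 13.5 and 9.19 CPM (log2 -3.44, edgeR FDR 0.0099). The median log2 change was 7.24 over the caudal list (4.60 with genes at 0 in one group set to their bounds) and -0.69 over the anterior list. The caudal median was 3.94 with library 1 alone and 7.85 with library 2 alone. The anterior median was -0.02 without mTeSR1 replicate 1 and -1.33 without mTeSR1 replicate 2. Among repeat 2 libraries alone, where mTeSR1 replicate 2 is also the one untreated library, it was -0.58. Its size thus varied with the fit, in which the members tested can also differ, and the reason was not tested. Of the 3 caudal calls 3 stayed with library 2 alone, 2 with library 1 alone, 1 without mTeSR1 replicate 1 or WNT3A 6 h replicate 2, and 0 without mTeSR1 replicate 2. Both anterior calls stayed with library 2 alone or without WNT3A 6 h replicate 2, 1 with library 1 alone, and 0 without either mTeSR1 library.

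**Figure D3:**
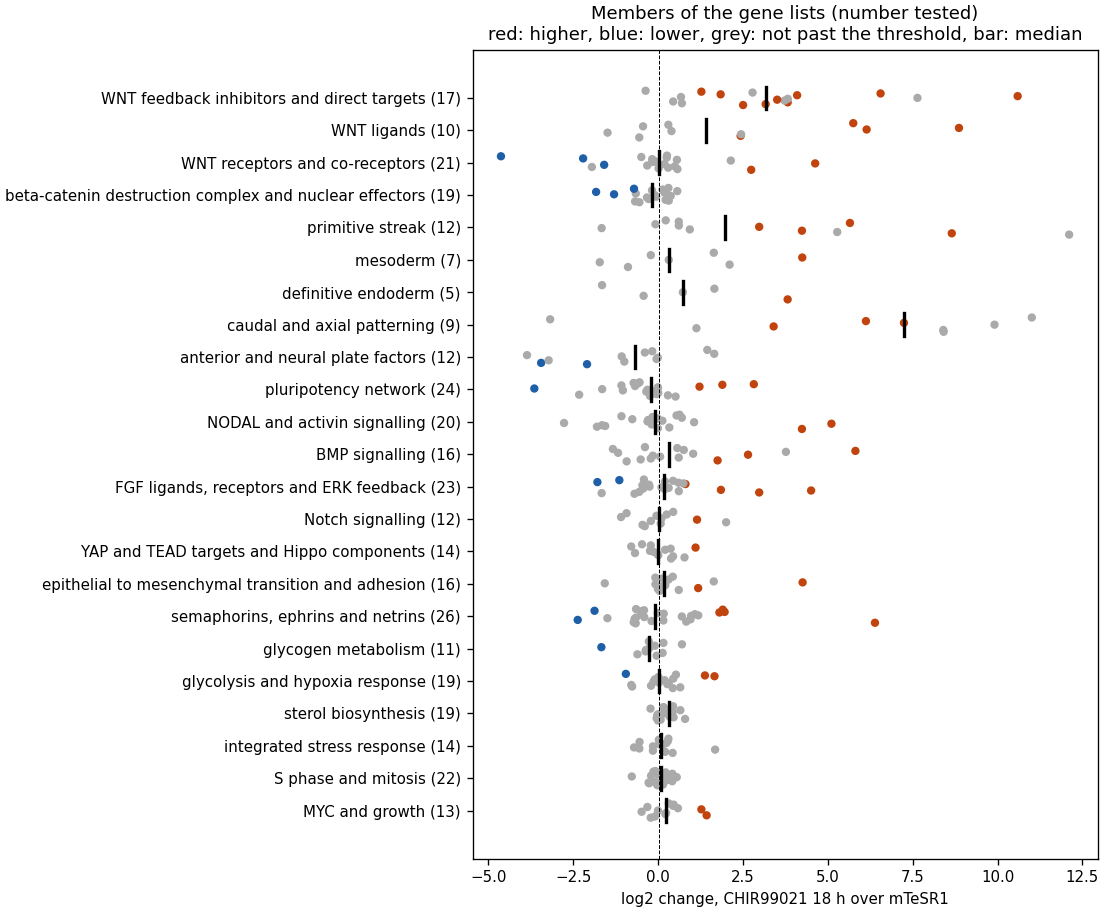
Log2 change after 18 h of CHIR99021 over mTeSR1 (x axis) of each tested member of 23 gene lists (rows, with the number tested). Red points passed as higher, blue as lower, grey did not pass, black bars are list medians, and the dashed line is the median of all tested genes. The medians of the WNT target list (3.17) and the caudal list (7.24) lie furthest to the right.

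The pluripotency network held 3 higher and 1 lower gene among 24 tested, with a median log2 change of -0.21. With DESeq2 3 were higher and 6 lower. The median was -0.41 with library 2 alone and -0.10 with library 1 alone. Summed levels of the network were 9959 and 8282 CPM after CHIR99021, against 11254 and 11344 CPM in mTeSR1. Its core did not pass: POU5F1 as given above (FDR 0.414), SOX2 (FDR 0.398), and NANOG, with 170.1 and 139 CPM after CHIR99021 and 103 and 189 CPM in mTeSR1 (FDR 0.404). Among repeat 2 libraries alone POU5F1 was called higher (log2 0.69, edgeR FDR 0.0233). The higher genes included KLF5 (7.88 and 11.2 CPM, against 1.2 and 1.47 CPM) and KLF4 (6.03 and 7.11 CPM, against 1.62 and 1.53 CPM). These zinc finger factors help to maintain or induce pluripotency, KLF4 being a reprogramming factor. FOXD3, a forkhead repressor of stem cells and neural crest, fell to 5.55 and 2.09 CPM, against 54 and 45.6 CPM (log2 -3.64, SE 0.41, edgeR FDR 0.00489). PRDM14, a repressor of differentiation, had 44.6 and 11.4 CPM, against 96.2 and 139 CPM (FDR 0.0677). The DNA methyltransferase DNMT3B had 1522 and 937 CPM, against 2431 and 2569.9 CPM (FDR 0.052). For PRDM14 and DNMT3B both CHIR99021 libraries lay below mTeSR1, library 2 the further. All 4 calls stayed with library 2 alone or without WNT3A 6 h replicate 2, 3 with library 1 alone or without mTeSR1 replicate 1, and 0 without mTeSR1 replicate 2.

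In the NODAL list of 20 genes, FST, which encodes the activin antagonist follistatin, rose beside NODAL to 177 and 399 CPM, against 12.5 and 7.43 CPM in mTeSR1 (log2 5.11, edgeR FDR 0.00138; 0.188 among repeat 2 libraries alone). Of 16 BMP genes 3 rose: the ligand BMP4 (4 and 5.13 CPM after CHIR99021, against 1.67 and 1.3 CPM), the BMP-responsive inhibitor of basic helix-loop-helix factors ID2 (33.2 and 77.4 CPM, against 10.1 and 9.02 CPM) and the homeobox gene MSX2 (0.656 and 1.64 CPM, against 0.0523 and 0 CPM, a ratio of 42.6 with an exact 95% counting interval of 7.22 to 1730). RGMB, a BMP co-receptor outside the list, rose to 115 and 130.3 CPM, against 21.3 and 21.9 CPM (log2 2.42, edgeR FDR 0.0006). Of 23 FGF genes 4 rose and 2 fell, against 1.15% and 1.63% of all tested genes. The ligands FGF8 (21 and 13.3 CPM, against 0.785 and 2.16 CPM), FGF18 (7.58 and 18.5 CPM, against 0.889 and 0.284 CPM) and FGF19 (57.7 and 46 CPM, against 9.99 and 14.9 CPM) rose, as did the ERK inhibitor SPRED2 by 0.81 on the log2 scale. DUSP6, an ERK phosphatase induced by FGF signalling, fell to 19 and 25.6 CPM, against 104 and 88.2 CPM, and the ERK-responsive factor ETV5 fell to 17.4 and 17 CPM, against 41.4 and 44 CPM. JAG1, a Notch ligand, was the one call among 12 Notch genes (log2 1.15). AMOTL2, a YAP-binding target gene, was the one among 14 Hippo genes (log2 1.11). Of all tested genes 2.78% were called, and a single call does not describe either list. In this paragraph NODAL, FST and RGMB stayed called without mTeSR1 replicate 1, and of the 6 FGF calls 4 stayed there, 4 with library 2 alone, 2 with library 1 alone and 5 without WNT3A 6 h replicate 2. Without mTeSR1 replicate 2 NODAL and RGMB stayed called and the BMP-list, FGF, Notch and Hippo calls did not. The BMP-list calls came to 3 with library 2 alone, 1 with library 1 alone, 2 without WNT3A 6 h replicate 2 and 0 without mTeSR1 replicate 1. JAG1 and AMOTL2 stayed called with library 2 alone or without WNT3A 6 h replicate 2 but not with library 1 alone or without mTeSR1 replicate 1.

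Guidance and adhesion genes moved both ways. Of 26 semaphorins, ephrins, netrins and their receptors 4 rose and 2 fell, against 1.15% and 1.63% of all tested genes. SEMA3C, a secreted semaphorin, had 16.5 and 31.3 CPM after CHIR99021, against 0.0523 and 0.397 CPM in mTeSR1 (log2 6.39, SE 0.54, edgeR FDR 0.00192). EFNB2, an ephrin ligand, had 68.9 and 87.6 CPM, against 30.1 and 22.3 CPM. NTN1 (log2 1.96) and SLIT2 (1.91), both secreted guidance cues, also rose, while the netrin receptor UNC5B (51.3 and 24.8 CPM, against 142 and 150.0 CPM) and SEMA6D (log2 -2.36) fell. Among 16 genes of the epithelial to mesenchymal transition, the repressor ZEB2 (3.1 and 16.9 CPM, against 2.62 and 0.113 CPM) and the mesenchymal cadherin CDH11 (17.8 and 28.8 CPM, against 7.95 and 10.8 CPM) rose. The epithelial cadherin CDH1 had 356 and 346 CPM, against 283 and 363 CPM, and CDH2 had 55.3 and 84.3 CPM, against 48.2 and 46.6 CPM, and neither passed. Of the 6 guidance calls 5 stayed with library 2 alone or without WNT3A 6 h replicate 2, 2 with library 1 alone or without mTeSR1 replicate 1, and 0 without mTeSR1 replicate 2. Calls of ZEB2 and CDH11 stayed with library 2 alone and with none of the other 4 libraries left out.

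Apart from these lists, the largest increases included GAD1, the enzyme that makes GABA (23.6 and 110.5 CPM after CHIR99021, against 1.15 and 0.227 CPM in mTeSR1), TMEM132C (6.62 and 42.7 CPM, against 0.523 and 0.794 CPM) and the receptor tyrosine kinase ALK (9.49 and 15.3 CPM, against 0.418 and 0.397 CPM, edgeR FDR 0.000939). SLC39A8, a zinc transporter, rose to 124 and 126 CPM, against 14.9 and 20.3 CPM (log2 2.62, edgeR FDR 0.000299), and the ubiquitin ligase HERC3 rose to 21.5 and 32.5 CPM, against 1.2 and 0.908 CPM. The largest decrease was that of SORBS2, an adaptor of the actin cytoskeleton (1.49 and 0.339 CPM, against 32 and 23.9 CPM, log2 -4.70, edgeR FDR 0.0045). DGKK, a diacylglycerol kinase, fell to 6.27 and 1.64 CPM, against 42.8 and 60.4 CPM. SYT4, a synaptotagmin (log2 -3.45), the dynamin DNM3 (-3.31), the neuronal membrane protein SEZ6 (-3.13) and the complexin CPLX2 (-2.83) also fell. So did the ciliogenesis factor FOXJ1 (0.656 and 0.621 CPM, against 6.49 and 4.76 CPM), GUCA1A, an activator of guanylate cyclase (-2.85), the phosphodiesterase PDE3A (-2.77), TMEM26 (-3.16) and CCDC110 (0.418 and 0.451 CPM, against 1.88 and 3.69 CPM). Of the 14 largest increases 14 stayed called with library 2 alone, 12 with library 1 alone, 6 without WNT3A 6 h replicate 2, 5 without mTeSR1 replicate 1 and 3 without mTeSR1 replicate 2. For the 14 largest decreases these counts were 13, 6, 13, 8 and 1.

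Lists of metabolic, stress and growth genes are read against the 2.78% of all tested genes that passed. Of 11 genes of glycogen metabolism, which GSK3 controls through glycogen synthase, 0 rose and the muscle phosphorylase PYGM fell (3.94 and 2.54 CPM after CHIR99021, against 9.26 and 10.2 CPM in mTeSR1). Among 19 genes of glycolysis and the hypoxia response, the kinase PDK1 (40.2 and 50.3 CPM, against 12.6 and 12.4 CPM) and the mitophagy receptor BNIP3 (55.1 and 76.4 CPM, against 28.6 and 23.7 CPM) rose, and ADM fell (log2 -0.95). None of 19 sterol genes, 14 genes of the integrated stress response and 22 genes of S phase and mitosis passed, with median log2 changes of 0.32, 0.08 and 0.10. In the growth list of 13 genes MYCL (42.1 and 62.1 CPM, against 21.9 and 20.8 CPM) and CCND1 rose. MYC had 92.4 and 72.5 CPM, against 86 and 82.6 CPM, and did not pass (FDR 0.624). The calls named in this paragraph were absent without mTeSR1 replicate 2, and 1 stayed without mTeSR1 replicate 1, in the glycolysis list. With library 1 alone 1 stayed, also in the glycolysis list, and with library 2 alone or without WNT3A 6 h replicate 2 all 6 did.

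The 2 CHIR99021 18 h libraries were compared gene by gene, with 1 library on each side and therefore no test. Of 11209 genes with a mean of at least 5 CPM, 89 were at least 2-fold higher in library 2 (0.794%) and 61 at least 2-fold lower (0.544%). Of the 89, 37 were also called higher against mTeSR1, against 1.15% of all tested genes, and in 61 both libraries stood above both mTeSR1 libraries, against 24.2%. The 89 were chosen for high values in library 2, which favours both counts. The shares beside them also cover tested genes under 5 CPM, so the sets are not alike. The homeobox gene EVX1, a marker of the late streak, had 52.1 CPM in library 2 and 0.119 CPM in library 1. The caudal homeobox gene CDX2 had 41.4 CPM in library 2 and 0.955 CPM in library 1, and its relative CDX1 had 27.5 and 1.13 CPM. TBXT, MIXL1, LEF1 and EOMES, given above, followed the same order. AC009412.1, UTP14C, GDF1 and ZACN were at 0 in library 1 and between 15.6 and 18.2 CPM in library 2, and each was also at 0 in some library of another group. In the other direction FAM220A had 0 CPM in library 2 and 21.4 CPM in library 1. LEFTY1, a NODAL antagonist, had 1.13 CPM in library 2 and 19.1 CPM in library 1, where mTeSR1 had 8.58 and 21.7 CPM. IQSEC2 (15.6 CPM in library 2, 69.8 CPM in library 1), PRDM14 (11.4 and 44.6 CPM), PPP1R16B (5.30 and 19.0 CPM) and PDZD2 (2.37 and 8.30 CPM) were likewise lower in library 2.

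This order held across the called genes. Library 2 lay above library 1 in 157 of the 176 higher genes, against 50.6% of all tested genes, with a median log2 ratio of 0.48. Among the 248 lower genes it lay below library 1 in 208, against 49.1% of all tested genes, with a median log2 ratio of -0.37. In the WNT target list 16 of 17 genes were higher in library 2. Some called genes differed little between the libraries. SALL3 had 233 CPM in library 1 and 256 CPM in library 2, and FOXB1, NODAL, SLC39A8 and RGMB, given above, differed by less than 1.5-fold. The log2 ratio of library 2 over library 1 correlated weakly with transcript length (Spearman -0.177 across genes, which are not independent), and the mitochondrial shares of both libraries were alike. Because both libraries carry the same label and repeat, whether they differ by well, timing or library preparation cannot be told apart.

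**Figure D4:**
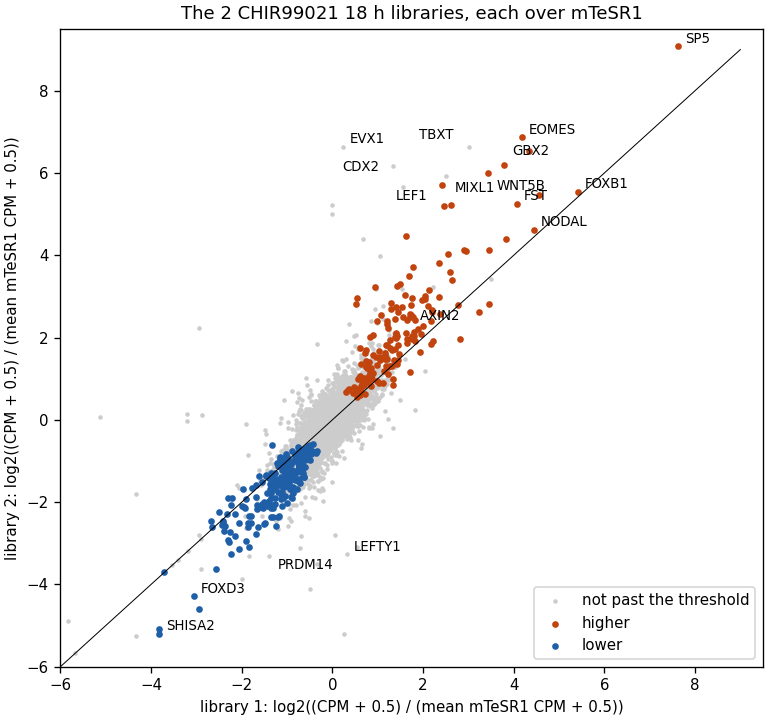
Log2 ratio of CPM plus 0.5 to the mean mTeSR1 CPM plus 0.5 in CHIR99021 18 h library 1 (x axis) and library 2 (y axis), for genes reaching 5 CPM in any of the 4 libraries; the line marks equal ratios. EVX1, CDX2 and TBXT lie far above the line, with FOXB1 and NODAL close to it, and LEFTY1 and PRDM14 lie below it.

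Against 6 h of CHIR99021, the earlier time of the same compound and dose, a single gene, SEZ6, passed (0.00656% of the genes tested). It had 9.83 and 13.6 CPM in mTeSR1, 6.71 and 8.36 CPM at 6 h and 1.43 and 1.52 CPM at 18 h (18 h over 6 h: log2 -2.50, SE 0.23, edgeR FDR 0.0376). At an unadjusted p under 0.05 there were 1045 genes, and DESeq2 called 131. The genes called at 18 h against mTeSR1 mostly stood further from mTeSR1 at 18 h than at 6 h. Both 18 h libraries lay above both 6 h libraries in 143 of the 176 higher genes, against 19.3% of all tested genes, and below them in 203 of the 248 lower genes, against 21.0%. The median log2 difference between 18 h and 6 h was 0.81 over the higher genes and -0.81 over the lower genes. These genes were chosen on the 18 h libraries, so the direction is in part fixed by that choice. SP5 had 135 and 370.2 CPM at 18 h, against 61 and 57.4 CPM at 6 h (log2 2.31, SE 0.47, FDR 0.218). TBXT had 3.52 and 49.2 CPM at 18 h, against 1.24 and 1.56 CPM at 6 h, and CDX2 0.955 and 41.4 CPM against 1.46 and 1.08 CPM. For these late genes library 1 stood near the 6 h libraries and library 2 far above them. SFRP1 had 169.7 and 109.9 CPM at 18 h, against 826 and 420.4 CPM at 6 h (log2 -1.72, SE 0.29, FDR 0.165). The call of SEZ6 for the later time was lost without either 6 h library, where 0 genes passed, while leaving out library 1 gave 83 genes and leaving out library 2 gave 1.

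**Figure D5:**
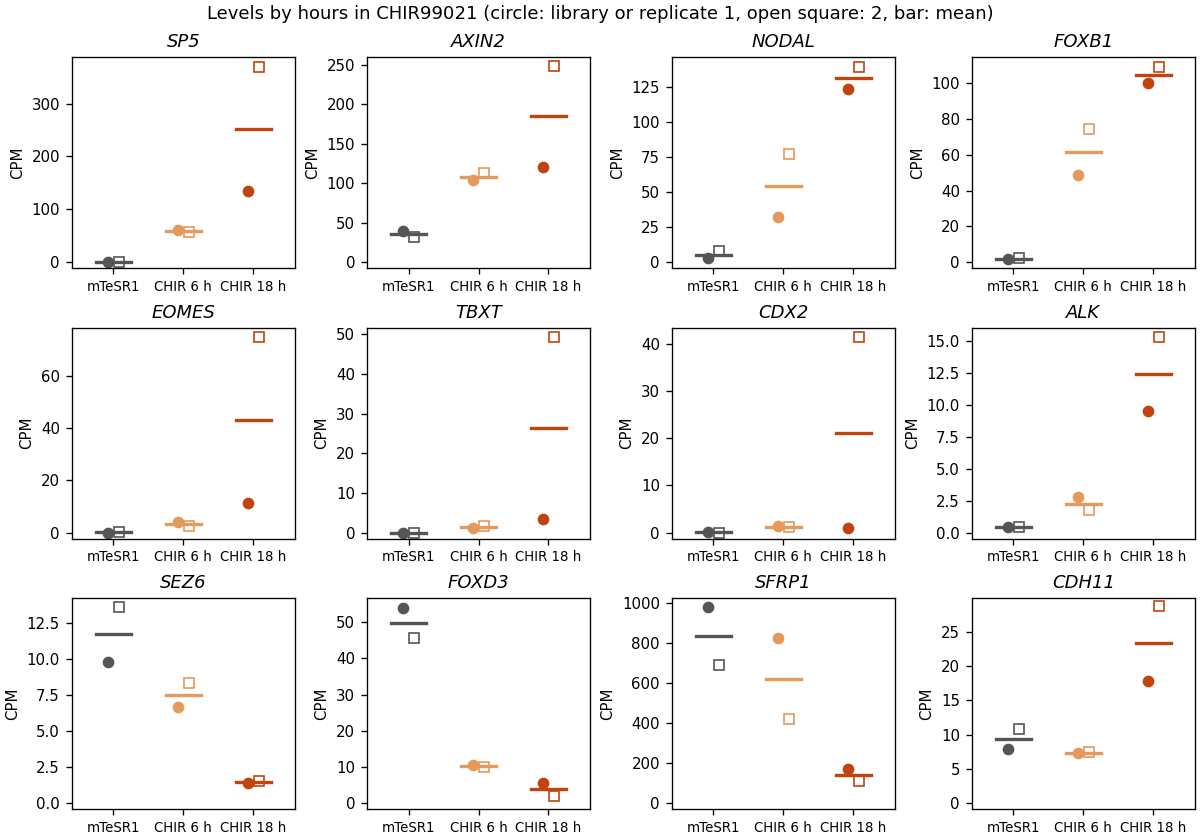
CPM (y axis, from 0) of 12 genes in mTeSR1, after 6 h and after 18 h of CHIR99021 (x axis), with circles for library or replicate 1, open squares for 2 and bars for the mean of 2. NODAL and FOXB1 increase at each step, while TBXT and CDX2 are high in 18 h library 2 alone. SEZ6 and SFRP1 are lowest at 18 h.

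Set against WNT3A protein for 18 h, CHIR99021 for 18 h gave 0 genes past the threshold by edgeR. At an unadjusted p under 0.05 there were 629, and DESeq2 called 10. The absence of calls does not show that the treatments act alike, and standard errors are given beside each difference. The log2 values come from the fit with the repeat as a block, so they can differ in size and sign from the ratio of the CPM beside them. FOXB1 had 100.1 and 109 CPM after CHIR99021 and 95.7 and 99.2 CPM after WNT3A (log2 -0.07, SE 0.16). AXIN2 had 120.2 and 249.4 CPM after CHIR99021 and 211 and 168 CPM after WNT3A (log2 0.09, SE 0.31). TBXT had 3.52 and 49.2 CPM after CHIR99021 and 60.7 and 54.6 CPM after WNT3A (log2 -1.02, SE 1.10), and MIXL1 7.4 and 84.3 CPM against 71.4 and 127 CPM. For TBXT, MIXL1 and CDX2 (0.955 and 41.4 CPM, against 50.4 and 25.5 CPM) library 1 lay far below both WNT3A libraries, and library 2 near or within their range. Among the 10 DESeq2 calls were GDF3, a TGF-β family ligand (15.8 and 12.1 CPM after CHIR99021, against 20.8 and 39.4 CPM after WNT3A, log2 -1.44, SE 0.19, edgeR FDR 0.56), and FZD8 (4.65 and 2.65 CPM, against 2.87 and 0.921 CPM, log2 1.61, SE 0.36, edgeR FDR 0.884). The groups overlap for FZD8 and not for GDF3, and both genes were named after their values were seen. With library 1 alone 6 genes passed, and with library 2 alone 0.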

How the data were processed

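Poly-T selected RNA was sequenced from both ends of each fragment, per the labels' protocols. The authors deposited a table of estimated counts with genes in rows and libraries in columns. The submitters' processing notes name Salmon 1.8.0 and the build GRCh38. The transcripts quantified and the use of strand are not stated there; values of overlapping or antisense genes may therefore mix. The 37951 identifiers gave 35940 symbols. Rows that share a symbol were summed and the estimated counts rounded, and genes whose reads divide among near-identical copies remain uncertain. Coordinates are from GENCODE release 29.

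Changes were tested with edgeR 4.0.16 in R 4.3.3 (TMM scaling, robust quasi-likelihood, minimum count 10 and minimum total 15, Benjamini-Hochberg adjustment over 15251 symbols). All 10 libraries entered 1 fit with the biological repeat as a block. Adjusted p is called FDR. The design text says that the repeats pair the libraries. In a check, the deviations of same-numbered libraries from their group means correlated in all 6 pairs of groups that share numbers (Pearson 0.261 to 0.595). The highest value was that of mTeSR1 with WNT3A 6 h, whose replicate 2 libraries share the length dependence given above. WNT3A 18 h with CHIR99021 6 h, a pair without those libraries, had 0.472. The part of length dependence in this check was not tested. The CHIR99021 18 h libraries differed beyond sampling noise (chi-square per degree of freedom 12.4, against 21.4 to 101 between the libraries of the other 4 groups). DESeq2 1.42.0 and other settings served as alternatives.

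Genes were named by a rule: the 14 largest called changes in each direction with non-overlapping libraries and a mean of at least 2 CPM, the called members of 33 gene lists and 9 fixed genes, the 6 largest ratios each way between the CHIR99021 libraries, the 10 lowest FDR, and up to 6 called genes each way in the contrasts with CHIR99021 6 h and WNT3A 18 h. Other genes named without a call are list members shown for contrast, chosen after their values were seen, as was SALL3. Members and lists were chosen with earlier results of these data known. The 95% counting intervals and the floors reflect counting error alone. A list of nuclear retained RNAs was not analysed here. Immediate early and heat shock genes (10 tested) and mitochondrially encoded genes (13 tested) had 0 calls. Some genes counted in the lists are not reported here by name.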

Additional observations from a re-analysis of the deposited data

Results flagged for a closer look

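SEZ6, a membrane protein of neurons, was the one gene that differed by test between 18 h and 6 h of CHIR99021. Its log2 difference was -2.50 (edgeR FDR 0.0376), with both 18 h libraries below both 6 h libraries. The call was lost without either 6 h library.

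CDH11, a mesenchymal cadherin, moved in opposite directions at the later and earlier time. It had 17.8 and 28.8 CPM after 18 h of CHIR99021, each above both mTeSR1 libraries (7.95 and 10.8 CPM), while 7.25 and 7.5 CPM after 6 h were each below both. The log2 difference between 18 h and 6 h was 1.52 (SE 0.25). It did not pass in the fit over all genes (edgeR FDR 0.165), so that a difference between the times was not established, and the opposition of directions itself was not tested. The mTeSR1 libraries serve both changes.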

How the results depend on the processing

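Of 1270 values for 98 named genes under alternative settings, 808 stayed on the same side of the threshold. Another 439 kept the direction and lost the call, 23 gained one and 0 changed the sign of a called change. Some genes without a call did change sign, such as NANOG (log2 -0.23 in the main fit, 0.08 without the replicate block). The 176 higher and 248 lower genes became 402 and 521 with DESeq2 and 119 and 135 per identifier. A test of the compared groups alone gave 7 and 1, and repeat 2 alone 671 and 571, with 263 of the 424 calls among them. Leaving out 1 library gave 8 to 244 higher and 2 to 278 lower genes. Without mTeSR1 replicate 2 and WNT3A 6 h replicate 2, both length-dependent, a setting chosen after seeing the data, the counts were 68 and 28. Leaving out WNT3A 6 h replicate 2 alone was also chosen after seeing the data. Without the pairing of libraries by repeat, that is without the replicate block, 101 genes were higher and 80 lower. Calls between CHIR99021 and WNT3A at 18 h numbered 10 with DESeq2, 1 per identifier and 0 to 6 without 1 library. Calls between 18 h and 6 h of CHIR99021 numbered 131 with DESeq2, 21 without a filter and 0 per identifier, without the replicate block, within the compared groups or within repeat 2, and 0 to 83 without 1 library. The cause was not tested, apart from the smaller number of libraries in some fits. Scaling by RLE gave 177 and 248 genes, and the library and promoter counts stayed close to those given. Low genes are limited by depth, at 0.157 to 0.179 CPM for 3 counts.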

Other observations

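Several genes of synapse and neurotransmission, picked after their values were seen and in no list used above, were lower after 18 h of CHIR99021. Others were higher, among them GAD1 (log2 6.97) and GABRB2, both named above. SYP, which encodes the vesicle protein synaptophysin, had 4.48 and 2.6 CPM, against 25.6 and 17.5 CPM in mTeSR1 (log2 -2.28, edgeR FDR 0.0045). The presynaptic adhesion gene NRXN2 had 5.31 and 3.1 CPM after CHIR99021, against 31.1 and 24.5 CPM (log2 -2.35), and the vesicle gene SYN1 had 14.1 and 11.1 CPM, against 23.8 and 29.4 CPM (log2 -1.17). REST, a repressor of neuronal genes outside the nervous system, had 118 and 139 CPM after CHIR99021, against 62.2 and 63.4 CPM in mTeSR1 (log2 1.07, edgeR FDR 0.0211). A link between REST and the lower genes was not tested.

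Both chains of a large neutral amino acid transporter were higher. SLC7A5 had 1789 and 2301 CPM after CHIR99021, against 874 and 940.3 CPM in mTeSR1 (log2 1.20, edgeR FDR 0.0106), and SLC3A2 had 464 and 619.8 CPM, against 394 and 223 CPM (log2 1.15, edgeR FDR 0.0365). The tubulin genes TUBB2A (945 and 1178 CPM, against 229 and 277 CPM) and TUBB2B (1589 and 1971 CPM, against 770.1 and 652 CPM), near-identical copies between which reads can divide, were higher by 2.01 and 1.43 on the log2 scale. The transporter, tubulin and REST genes were likewise picked after their values were seen. For the genes under this heading, calls with a library left out are not given. The number of calls depended on single libraries, as described above.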
